A study of Drosophila melanogaster with 36 samples.

Results

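The comparison described here is that of larval diet in the fat body of young adult Drosophila melanogaster females. Fat body from flies reared as larvae on a high-quality diet (H, 120% sugar-yeast-agar, SYA) was set against fat body from flies reared on a medium-quality diet (M, 100% SYA), both sampled at RNA-1, the point at which 10% of the cohort had died. The 6 libraries were chosen by their labels alone, out of 36 in the series. They comprise 3 H libraries (replicates 1, 2 and 4, written H1, H2 and H4) and 3 M libraries (replicates 1, 2 and 3, written M1, M2 and M3), and values in the text follow that order. The study asked how diet during development bears on the relation of fecundity to lifespan in adults, and on gene expression with it. Females of both larval treatments were moved to the same adult diet, mated at intervals, and sampled again at RNA-2, when 60% had died. Fat body here means the abdomen without gut and ovaries, so it also holds muscle, epidermis, oenocytes, hemocytes, nerves and reproductive tract. Each library was made from a pool of 11 or 12 females, the sources used here do not say whether pools came from separate culture vials, and p-values measure the spread between these pools.

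The adult fat body is the fly's counterpart of liver and adipose tissue. It stores triglyceride and glycogen, makes the circulating sugar trehalose, and secretes lipoproteins, iron carriers, yolk proteins and antimicrobial peptides into the hemolymph, all of which enter the secretory pathway through the endoplasmic reticulum (ER). Hormones of the insulin, TGF-beta and juvenile hormone pathways link its metabolism to what the animal eats.

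Values are normalized counts, that is, estimated read counts that the authors divided by a size factor for each library. They summed to between 66729593 and 75354692 in the 3 H libraries and between 63172781 and 71330128 in the 3 M libraries, and 10850 of 12394 genes reached 10 normalized counts in at least 3 of the 12 fat body libraries and were tested. Defining fat body genes, among them the yolk protein genes Yp1, Yp2 and Yp3, took 17.1 to 18.5% of the total in H libraries, against 15.7 to 16.5% in M libraries (15 genes, none at 0). Their mean log2 levels overlapped, at 15.59, 16.02 and 15.72 in H libraries, against 15.58, 15.69 and 16.18 in M libraries. Other tissues were present at lower levels and differed between libraries. The summed level of 44 germline genes ranged from 48220 to 74763 in H libraries, against 57583 to 109304 in M libraries, and that of 25 eggshell genes from 10879 to 28498 in H libraries, against 11116 to 94323 in M libraries. Both ranges overlapped, with M1 the highest library in mean log2 germline level and M2 in eggshell level. For 37 gut genes the sums ranged from 925247 to 2269050 in H libraries, against 1078843 to 1788874 in M libraries, and M3 stood apart with the highest mean log2 level (13.19, against 10.80 to 11.49 in the other 5 libraries). M3 was also the only library with Fbp1, a receptor for larval storage proteins, at a high level: 1749, 471 and 395 in H females and 3395, 2076 and 118514 in M females. In bulk tissue, fewer cells of a type and less RNA per cell cannot be told apart.

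Between H and M females at RNA-1, 53 genes were higher in H (0.488% of genes tested) and 54 were lower (0.498%) at a Benjamini-Hochberg adjusted p under 0.05 in limma. An unadjusted p under 0.05 was reached by 1719 genes. Lower genes had the larger median change. Of the 54 lower genes 30 changed at least 2-fold, with a median log2 fold change of -1.14, whereas 9 of the 53 higher genes did, with a median of 0.66. The 3 H values lay apart from the 3 M values for all 107 called genes. Across all genes tested, every H library was above every M library in 12.9% of genes and below in 9.74%. The calls were sensitive to single libraries. Leaving out H1 left 34 higher and 50 lower genes, H2 10 and 17, H4 2 and 9, M1 4 and 15, M2 1 and 9, and M3 20 and 31. Each of the 107 genes kept its sign throughout, but no higher gene was called in all 6 of these fits and 6 lower genes were: Tret1-2, tobi, Pdcd4, CG6495, CG8008 and CG1208. When each library was divided by its total instead of the authors' size factors, 69 genes were called higher and 141 lower, so that higher genes made up 32.9% of calls, against 49.5% with the deposited scaling.

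**Figure D1:**
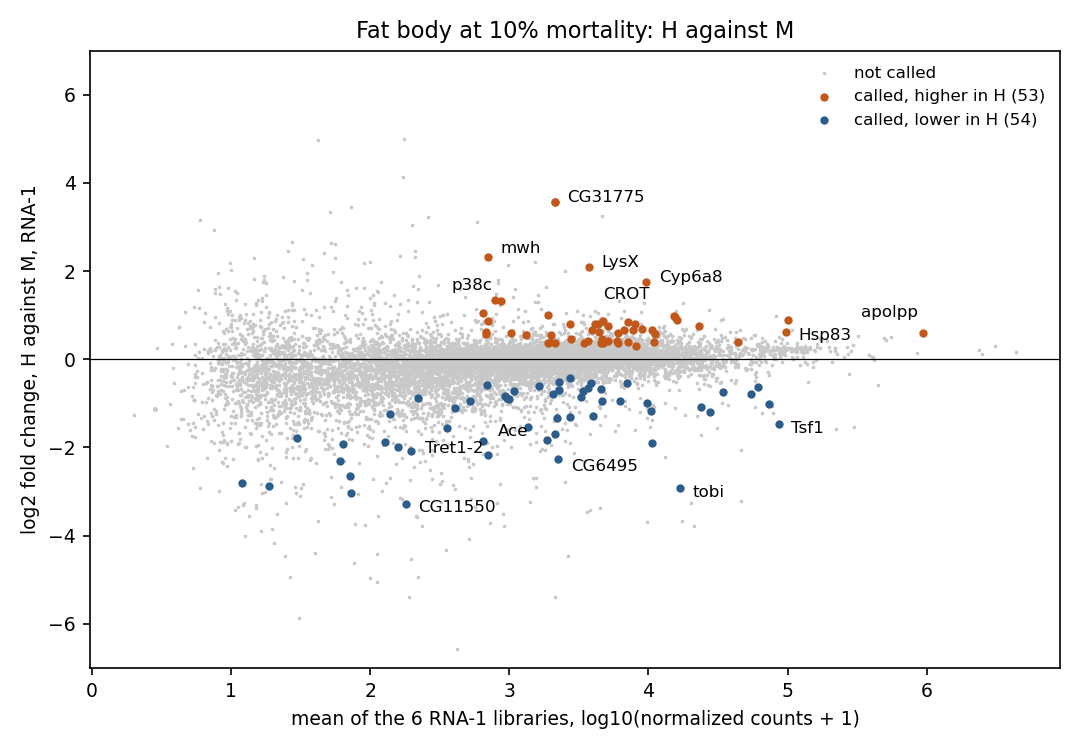
Log2 fold change of H over M at RNA-1 (vertical axis) against the mean level of each gene over the 6 libraries (horizontal axis, log10 of normalized counts + 1), for the 10850 genes tested. Orange points are the 53 genes called higher in H, blue points the 54 called lower. Called changes reach 3.57 log2 units upward and 3.275 downward, with medians of 0.658 for the higher and -1.141 for the lower genes.

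Genes of sugar transport and storage were among the lower genes. In the list for trehalose, glycogen and gluconeogenesis, 4 of 16 tested members were called lower and 0 higher, with a median log2 fold change of -0.39 against -0.02 over all genes. Tret1-2, named for trehalose transport by its similarity to other genes of that name, had 65.7, 98.7 and 61.7 in H females, against 308, 316 and 321 in M females (log2 fold change -2.08 ± 0.19 SE, limma adjusted p = 0.00378). Its close paralog Tret1-1 had 26407, 26042 and 25094 in H females, against 41894, 43633 and 43721 in M females (log2 fold change -0.74 ± 0.09 SE, limma adjusted p = 0.0102). Trehalose transport itself was not measured. The M libraries lay close together for both Tret1 genes and well above every H library. tobi (chr3R:25344761-25346921, minus strand, BDGP6 annotation), an alpha-glucosidase known as a target of the brain's insulin-producing cells that responds to dietary protein and sugar, had 2832, 4373 and 4099 in H females, against 23714, 20976 and 44948 in M females (log2 fold change -2.93 ± 0.34 SE, limma adjusted p = 0.0102). UGP, which makes the UDP-glucose used for both glycogen and trehalose, had 45192, 39713 and 35970 in H females, against 62070, 73957 and 72869 in M females (log2 fold change -0.79 ± 0.14 SE, limma adjusted p = 0.0323). Neither gene's H values came near the lowest M value, and tobi had the largest change of the list. Pgm1, the phosphoglucomutase that links glucose 6-phosphate to glycogen, and Treh, which splits trehalose, were chosen after their values were seen: Pgm1 had 36284, 36287 and 33980 in H females, against 45839, 48455 and 54721 in M females (log2 fold change -0.48, limma adjusted p = 0.128) and Treh had 12372, 13917 and 12859 in H females, against 19708, 19683 and 16936 in M females (log2 fold change -0.52, limma adjusted p = 0.16). Neither was called, although their groups did not overlap. Tret1-2 and tobi kept their calls whichever library was left out (adjusted p up to 0.0261 and 0.0483). Tret1-1 lost its call without H4 or M2 (adjusted p up to 0.0566), and UGP without H2, H4, M1, M2 or M3 (adjusted p up to 0.134). Reads are split between the Tret1 paralogs by the counting, and tobi and UGP share exon bases with genes on the other strand.

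**Figure D2:**
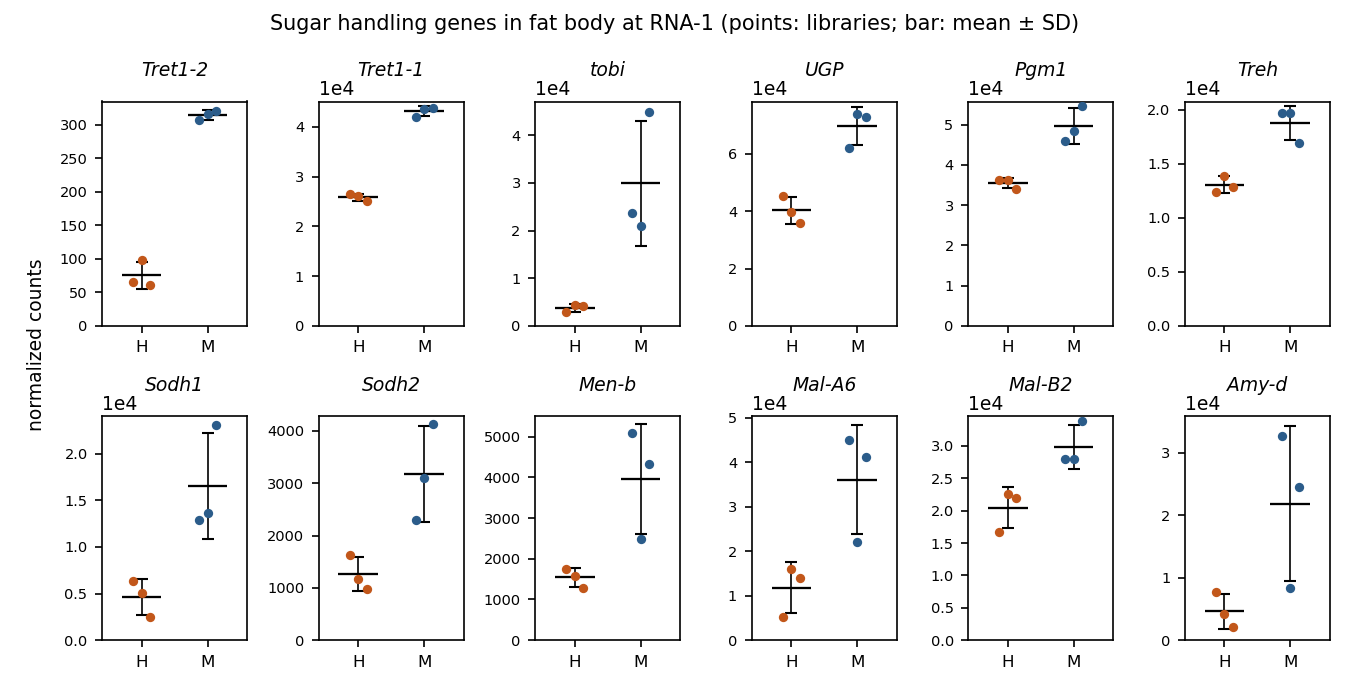
Normalized counts of genes of sugar handling in each RNA-1 fat body library, H on the left and M on the right of each panel. Points are libraries and the bars with whiskers are mean ± SD of 3, and in each panel of a called gene every H point lies below every M point.

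Enzymes that digest or interconvert sugars followed the same side without reaching the threshold as a group. All 13 tested maltases and amylases had a lower fitted level in H females, 10 of them with every H library below every M library (9.74% of all genes), and the median log2 fold change was -2.02, yet 0 were called. Mal-B2 had 16784, 22644 and 21966 in H females, against 27957, 27913 and 33815 in M females (log2 fold change -0.55, limma adjusted p = 0.167), Mal-A6 had 5259, 16008 and 14004 in H females, against 44926, 22191 and 41243 in M females (log2 fold change -1.71, limma adjusted p = 0.157), and the amylase Amy-d had 7663, 4113 and 2118 in H females, against 32709, 8309 and 24587 in M females (log2 fold change -2.21, limma adjusted p = 0.172). The M values of Mal-A6 and Amy-d were widely spread, with M2 the lowest library, and Amy-p overlapped between the groups at 24160, 14498 and 9442 in H females, against 111462, 22253 and 97940 in M females (log2 fold change -2.07, limma adjusted p = 0.198). Amylases and most maltases are known as midgut enzymes, Mal-A6 is itself one of the gut markers, and M3 held the highest mean gut marker level. The part of gut RNA in these values was not tested. With germline level as a covariate Mal-A6 (log2 fold change -2.10, limma adjusted p = 0.0478) and Mal-B2 (log2 fold change -0.72, limma adjusted p = 0.00621) were called. With gut level in its place, which includes Mal-A6 and both amylases, neither maltase was called. The log2 fold changes were then -1.613 for Mal-A6 and -0.505 for Mal-B2 (limma adjusted p = 0.173 and 0.156). Outside that list, the sorbitol dehydrogenases, which oxidize sorbitol to fructose, were called: Sodh1 had 6363, 5009 and 2517 in H females, against 12890, 13696 and 23057 in M females (log2 fold change -1.89, limma adjusted p = 0.0371) and Sodh2 had 1624, 1176 and 987 in H females, against 2296, 3105 and 4129.9 in M females (log2 fold change -1.32, limma adjusted p = 0.0334). The malic enzyme gene Men-b, a source of NADPH, had 1746, 1584 and 1289.6 in H females, against 5099, 2476 and 4319 in M females (log2 fold change -1.31, limma adjusted p = 0.0349), the one call among 22 genes of the tricarboxylic acid cycle list. H and M values did not overlap in these 3 genes. Sodh1 lost its call without H2, H4, M1, M2 or M3 (adjusted p up to 0.109), Sodh2 without H2, H4, M2 or M3 (adjusted p up to 0.134) and Men-b without H1, H2, H4, M1 or M3 (adjusted p up to 0.148).

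Genes of lipid handling moved in both directions. Of 39 members of the list for lipid storage, lipoproteins and fatty acid synthesis, 1 was called higher (apolpp) and 1 lower (GLaz), and 16 had every H library above every M library (12.9% of all genes). apolpp, which encodes the protein scaffold of lipophorin, the lipid carrier of the hemolymph, had 1124504, 1012828 and 1261859 in H females, against 690852, 746635 and 825213 in M females (log2 fold change 0.59 ± 0.11 SE, limma adjusted p = 0.043). CROT, a carnitine acyltransferase of medium-chain fatty acids that belongs to none of the lists, had 18266, 21575 and 21610 in H females, against 9325, 10652 and 10867 in M females (log2 fold change 0.99 ± 0.15 SE, limma adjusted p = 0.0235). Both genes were thus higher in every H library, CROT by 1.99-fold. With quantile scaling the log2 fold change of apolpp was 0.20 and it was not called (limma adjusted p = 0.268). Dgat2, which catalyzes the last step of triglyceride synthesis, had 2704, 3282 and 2401 in H females, against 783, 966 and 923 in M females, a mean of 2796 ± 448 in H and 891 ± 95.7 in M females (SD, n = 3 each). It fell just short of the threshold (log2 fold change 1.64 ± 0.33 SE, limma adjusted p = 0.0519). The perilipin Lsd-1, a coat protein of lipid droplets, had 172971, 212343 and 211698 in H females, against 132075, 144301 and 146476 in M females (log2 fold change 0.49, limma adjusted p = 0.24), and Mtpalpha, a subunit of the mitochondrial trifunctional protein of beta-oxidation, had 34250, 34269 and 34924 in H females, against 25382, 25862 and 27872 in M females (log2 fold change 0.39, limma adjusted p = 0.0592). Neither was called, and in both the groups did not overlap. GlcT, a glucosylceramide synthase, was called at 3309.7, 3513 and 3576 in H females, against 2209, 1703 and 2062 in M females (log2 fold change 0.81, limma adjusted p = 0.0458). GlcT was not called with library totals (limma adjusted p = 0.102). No higher call of this paragraph withstood all left-out libraries: apolpp and GlcT lost theirs whichever library was left out (adjusted p up to 0.169 and 0.169), and CROT without H2, H4, M1 or M2 (adjusted p up to 0.105).

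On the lower side of lipid metabolism, bgm, an acyl-CoA synthetase of very long chain fatty acids, had 7902, 5369 and 6035 in H females, against 15249, 11952 and 16223 in M females (log2 fold change -1.18, limma adjusted p = 0.0172). Cyt-b5-r, a cytochrome b5-related gene, had 47962, 53602 and 44822 in H females, against 91648, 94140 and 112504 in M females (log2 fold change -1.02 ± 0.13 SE, limma adjusted p = 0.0117), so M females carried 2.04-fold more. GLaz, a lipocalin of the apolipoprotein D family, had 647, 732 and 682 in H females, against 1135, 1437 and 1304 in M females (log2 fold change -0.91, limma adjusted p = 0.0117). The diets did not overlap in these 3 genes, and replicates of bgm were spread more widely than those of the other two. Elo68alpha, a fatty acid elongase chosen after its values were seen, had 10.1, 14.8 and 15.7 in H females, against 126, 61.6 and 202 in M females (log2 fold change -3.03, limma adjusted p = 0.0365). The groups did not overlap, and the M values were widely spread, with M3 the highest. Without H4 or M2 (adjusted p up to 0.0629) the call of Cyt-b5-r was lost, as was that of GLaz without H4 or M2 (adjusted p up to 0.0612), that of bgm without H2, H4 or M1 (adjusted p up to 0.0949) and that of Elo68alpha whichever library was left out (adjusted p up to 0.136). Elo68alpha was not called with quantile scaling either (limma adjusted p = 0.0626).

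Tsf1, the iron-binding transferrin of the hemolymph, had 42837, 49937 and 41640 in H females, against 106741, 100692 and 177516 in M females (log2 fold change -1.47 ± 0.20 SE, limma adjusted p = 0.0155). It was the 1 called gene among 26 genes of the antioxidant list. H females lay within a narrow range and M3 was the highest library. Amino acid metabolism had 1 call among 32 genes: Cbs, the cystathionine beta-synthase of transsulfuration, had 721, 751 and 568 in H females, against 1426, 1102 and 1222 in M females (log2 fold change -0.88, limma adjusted p = 0.027). Argl, the fly's argininosuccinate lyase homolog, and HisT were called too and were chosen after their values were seen. Argl had 4143, 4881 and 3786 in H females, against 6585, 7974 and 10261 in M females (log2 fold change -0.94, limma adjusted p = 0.043), and HisT had 855, 907 and 686 in H females, against 1351, 1459.6 and 1231 in M females (log2 fold change -0.73, limma adjusted p = 0.0364). In these 4 genes every H library was below every M library. Tsf1 lost its call without H4 (adjusted p up to 0.0841), Cbs without H2, H4, M1, M2 or M3 (adjusted p up to 0.105), and Argl and HisT whichever library was left out (adjusted p up to 0.171 and 0.133).

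Other lower genes included a translation regulator, a carbonic anhydrase and a receptor. Pdcd4 (chrX:13745577-13755406, minus strand), the homolog of a mammalian inhibitor of translation initiation, had 3409, 2961 and 3172 in H females, against 6326, 6265 and 5822 in M females (log2 fold change -0.95 ± 0.11 SE, limma adjusted p = 0.0102). CAH1, a carbonic anhydrase, had 5608, 6063 and 5663 in H females, against 8141, 8770.2 and 8102 in M females (log2 fold change -0.53, limma adjusted p = 0.0146), and LRP1, a member of the low-density lipoprotein receptor family, had 3477, 2872 and 3159 in H females, against 4644, 4435 and 4593 in M females (log2 fold change -0.53, limma adjusted p = 0.0235). The spread within a diet was small beside the difference between diets in all 3. Among genes known only by a CG number, CG6495 had 639.8, 1084 and 646 in H females, against 3112, 3372 and 4688 in M females (log2 fold change -2.26 ± 0.21 SE, limma adjusted p = 0.00378), CG8008 had 626, 702 and 661 in H females, against 1201, 1269 and 1098 in M females (log2 fold change -0.84, limma adjusted p = 0.00571), and CG1208 had 1749, 2694 and 2617 in H females, against 5221, 4879 and 6946 in M females (log2 fold change -1.28, limma adjusted p = 0.0146). These 3 kept their calls in all fits without 1 library, as did Pdcd4 (adjusted p up to 0.0483). CG42788 had 5548, 6709.9 and 7305 in H females, against 12495, 12765 and 13400 in M females (log2 fold change -0.99, limma adjusted p = 0.0102) and CG11550 had 41.7, 17.3 and 42.7 in H females, against 379.9, 211 and 381 in M females (log2 fold change -3.27, limma adjusted p = 0.0326). CG11550 showed the largest drop of all called genes. Without H4 or M2 (adjusted p up to 0.0793) the call of CAH1 was lost, as were those of LRP1 without H2, H4, M1, M2 or M3 (adjusted p up to 0.105), of CG42788 without M2 (adjusted p up to 0.0523) and of CG11550 whichever library was left out (adjusted p up to 0.125).

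Several lower genes are known from tissues other than the fat body. Ace, the acetylcholinesterase of cholinergic synapses, had 287, 292 and 269 in H females, against 1091, 913 and 1059.6 in M females (log2 fold change -1.85 ± 0.25 SE, limma adjusted p = 0.0146). Neuron markers, of which 0 were called, had a median log2 fold change of -0.56. Their mean log2 levels overlapped, at 8.37, 7.50 and 7.59 in H libraries, against 8.23, 8.51 and 8.23 in M libraries. In 4 of the 16 genes (25%, against 9.74% of all genes) every H library was below every M library. The summed level of the 16 genes was 6603 to 9154 in H libraries, against 9588 to 10192 in M libraries, without overlap. At RNA-2, where Ace was again lower in H, these sums lay the other way. They were 9448 to 11910 in H libraries, against 7680 to 8239 in M libraries. Mean log2 levels overlapped there too (7.90 to 8.49 in H, 7.68 to 7.97 in M libraries). The part of nervous tissue in the Ace result was not tested. drm, a zinc finger gene of gut patterning, had 132, 203 and 202 in H females, against 632, 511 and 443 in M females (log2 fold change -1.57, limma adjusted p = 0.024), and Cralbp, a retinoid-binding protein gene, had 69.5, 56.8 and 61.7 in H females, against 253, 253 and 249 in M females (log2 fold change -1.99, limma adjusted p = 0.0294). Jhbp1, named for juvenile hormone binding, had 897, 636 and 888 in H females, against 3542, 2994 and 2154 in M females (log2 fold change -1.83, limma adjusted p = 0.042) and was the 1 call among 17 juvenile hormone genes. H and M libraries did not overlap in any of these genes. Its relative takeout (to), a gene of feeding and circadian output in the fly, had 414, 102 and 273 in H females, against 5638, 4363 and 5124 in M females and the largest change of that list, but its fit did not pass (log2 fold change -4.46 ± 1.28 SE, limma adjusted p = 0.124). Ace lost its call without H4, M1 or M2 (adjusted p up to 0.0793), drm without H2, H4, M1 or M2 (adjusted p up to 0.1), and Cralbp and Jhbp1 whichever library was left out (adjusted p up to 0.121 and 0.154).

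Genes of the machinery that carries new proteins into the ER were among the higher genes. In the list for ER secretory machinery and the unfolded protein response, 4 of 36 members were called higher and 0 lower, 35 had a positive log2 fold change, 26 had every H library above every M library (72.2%, against 12.9% of all genes) and the median log2 fold change was 0.26. The Sec61 channel, through which nascent chains pass the ER membrane, rose in all its subunits. Sec61alpha, the pore, had 27048, 30271 and 29844 in H females, against 15863, 16759 and 19384 in M females (log2 fold change 0.75 ± 0.13 SE, limma adjusted p = 0.0294). Sec61beta had 9399, 11050 and 10206 in H females, against 5132, 5990.1 and 6501 in M females (log2 fold change 0.80 ± 0.12 SE, limma adjusted p = 0.0198), and Sec61gamma had 4991, 5885 and 5589.9 in H females, against 2902, 3247 and 3334 in M females (log2 fold change 0.80 ± 0.15 SE, limma adjusted p = 0.0451). The 3 subunits changed by nearly the same factor and their groups did not overlap. The translocon-associated protein complex, which assists the channel, gave Tapdelta at 8896, 9889 and 9881 in H females, against 5334, 5852 and 6877 in M females (log2 fold change 0.67, limma adjusted p = 0.024) and SsRbeta at 10294, 11678 and 11248 in H females, against 6132, 6843 and 7814 in M females (log2 fold change 0.68, limma adjusted p = 0.0371). CG32276, a gene known only by its CG number and in neither list of ER genes, had 18868, 22220 and 21722 in H females, against 9753, 11262 and 12822 in M females (log2 fold change 0.90, limma adjusted p = 0.0235).

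A second list of 26 genes for protein entry into the ER was drawn up after the values were seen and is given as a description. It held 8 higher calls and 0 lower, all 26 members had a positive log2 fold change and 22 had every H library above every M library (12.9% of all genes). It added the signal recognition particle and its receptor, which bring ribosomes to the channel. SrpRbeta, the membrane anchor of the receptor, had 3044, 3334 and 3340.3 in H females, against 2201, 2339 and 2485 in M females (log2 fold change 0.47, limma adjusted p = 0.0346). Srp72 had 3694, 3926 and 3919.8 in H females, against 2882, 2947 and 3177 in M females (log2 fold change 0.36, limma adjusted p = 0.0383) and Srp9 had 2027, 2195 and 2239 in H females, against 1615, 1697 and 1646 in M females (log2 fold change 0.38, limma adjusted p = 0.0433). The differences were modest beside those of the channel, and the spread between replicates was small. The calls of this group rested on the full set of libraries: without H2, H4, M1 or M2 both lists fell to 0 calls, without H1 they held 2 and 4, and the added list held 4 without M3. Adjusted p reached up to 0.126 for Sec61alpha, 0.0949 for Sec61beta, 0.168 for Sec61gamma, 0.105 for Tapdelta and 0.148 for SsRbeta, and CG32276 lost its call without H2, H4, M1 or M2 (adjusted p up to 0.105). The medians of both lists stayed positive with division by library totals (0.16 and 0.20) and with quantile scaling (0.23 and 0.28). Division by library totals ended the calls of Sec61gamma (adjusted p = 0.0778), SrpRbeta (0.0753), Srp72 (0.172) and Srp9 (0.235) in limma.

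**Figure D3:**
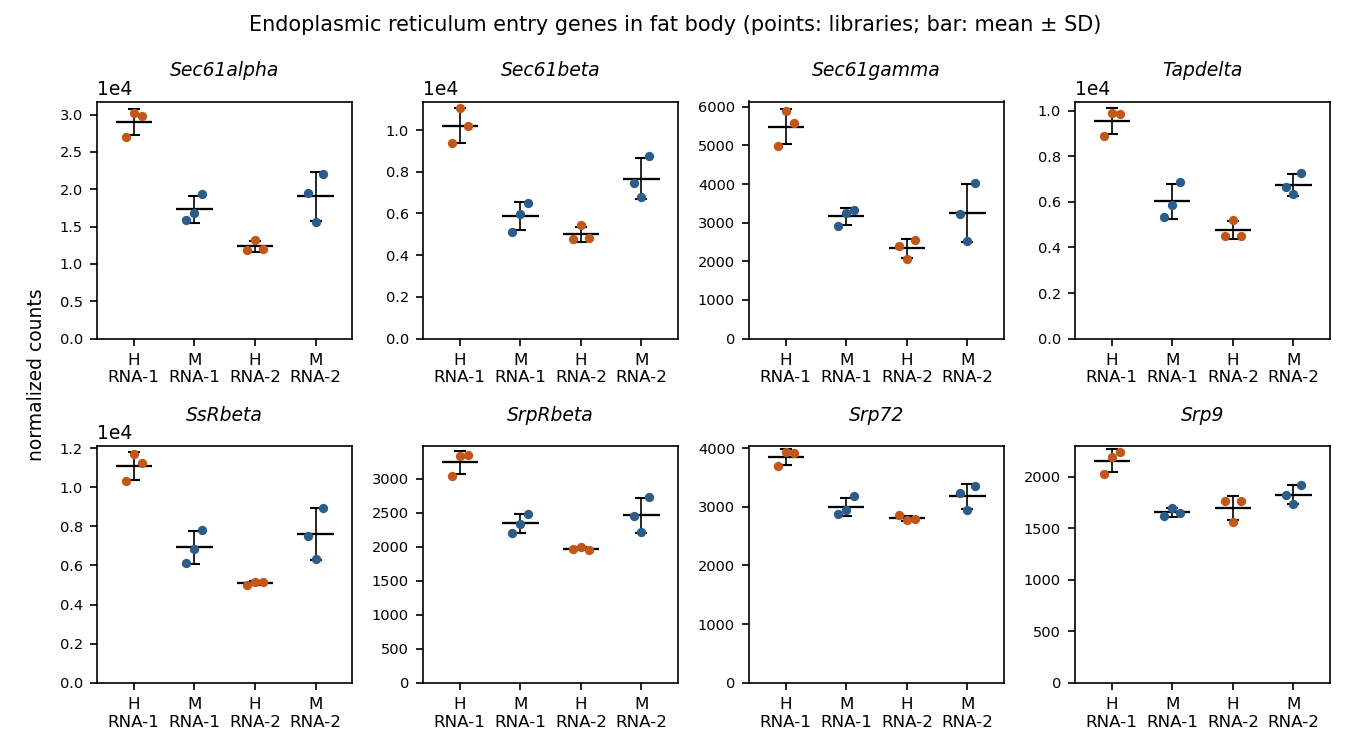
Normalized counts of 8 ER entry genes in each fat body library, with H and M at RNA-1 followed by H and M at RNA-2 in each panel, and bars with whiskers for mean ± SD of 3 libraries. At RNA-1 every H point lies above every M point in all 8 panels, and at RNA-2 the H means lie below the M means.

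Of protein folding and turnover, 1 chaperone and 1 proteasome gene were called higher. Hsp83, the cytosolic Hsp90 chaperone, had 122760, 120528 and 109188 in H females, against 74905, 73388 and 79776 in M females (log2 fold change 0.63 ± 0.08 SE, limma adjusted p = 0.0146), the 1 call among 25 heat shock proteins and chaperones, of which 17 had a positive log2 fold change (13 with library totals). DnaJ-1, an Hsp40 cochaperone, had 11647, 11658 and 11809 in H females, against 9299, 9669 and 9884 in M females (log2 fold change 0.28, limma adjusted p = 0.0514). All 32 proteasome subunits had a positive log2 fold change, with a median of 0.22, and in 26 (81.2%, against 12.9% of all genes) every H library was above every M library, but 1 was called. That subunit was Rpn12 of the regulatory particle, at 9106, 8864 and 9061 in H females, against 6956, 7557 and 7372 in M females (log2 fold change 0.31, limma adjusted p = 0.046). Rpn11, the deubiquitinase of the same particle, had 10068, 10163 and 10041 in H females, against 7733, 8261 and 8636 in M females (log2 fold change 0.30, limma adjusted p = 0.0506), and Rpn7 had 8223, 8569.5 and 8102 in H females, against 6710.5, 6958 and 6948 in M females (log2 fold change 0.27, limma adjusted p = 0.051). The differences in these 3 subunits were small, with groups that did not overlap. The 87 cytosolic ribosomal protein genes had a median log2 fold change of 0.22 and 0 calls. The log2 fold change was positive in 85 of them, against 5043 of all 10850 genes tested. In 2 (2.3%, against 12.9% of all genes) every H library was above every M library. The proteasome median was 0.12 with library totals and 0.17 with quantile scaling, where Rpn12 was not called (limma adjusted p = 0.235 and 0.0791), and the ribosomal median was 0.12 and 0.09. Quantile scaling also ended the call of Hsp83 (limma adjusted p = 0.141). Hsp83 lost its call without H2, M1 or M2 (adjusted p up to 0.0761), and Rpn12 whichever library was left out (adjusted p up to 0.169).

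Lysozymes and antimicrobial peptides had high fold changes with wide spreads. LysX (chr3L:1194739-1195302, minus strand), 1 of 7 lysozyme genes tested, was the only one called, at 4327, 8185 and 5598 in H females, against 1149, 1252 and 1792 in M females (log2 fold change 2.09 ± 0.25 SE, limma adjusted p = 0.0102), 4.32-fold higher in H by the group means. Without M2 (adjusted p up to 0.0523) it was not called. LysC had 2373, 5883 and 3995 in H females, against 861, 868 and 1139 in M females (log2 fold change 2.01, limma adjusted p = 0.251), LysB had 7945, 12811 and 15429 in H females, against 7089, 5129 and 4692 in M females (log2 fold change 1.07, limma adjusted p = 0.404), and LysS, close to the detection limit, had 15.1, 24.7 and 29.3 in H females, against 2.33, 7.18 and 2.78 in M females (log2 fold change 2.31, limma adjusted p = 0.0949). In 5 of the 7 genes every H library was above every M library (12.9% of all genes), and the median log2 fold change was 2.01. Lysozymes of this cluster are known as digestive proteins of the gut, and LysX is one of the 37 gut markers, whose median log2 fold change was -0.31. The part of gut RNA in these values was not tested. With gut level, which includes LysX and LysB, as a covariate LysX was called (log2 fold change 2.14, limma adjusted p = 0.0103). LysC, LysB and LysS were not called in that fit. The genes are close copies between which reads may be split, and LysC shares exon bases with LysD. Among 19 antimicrobial peptide genes 0 were called, the median log2 fold change was 1.20, and 12 had every H library above every M library (63.2%, against 12.9% of all genes). Mtk, which encodes Metchnikowin, had 2155, 3130.3 and 1760.3 in H females, against 824, 1150.5 and 593 in M females (log2 fold change 1.47, limma adjusted p = 0.316), and Drsl5, of the drosomycin family, had 8324, 7298 and 8563 in H females, against 6998, 2259.5 and 4773 in M females (log2 fold change 0.93, limma adjusted p = 0.341). The peptidoglycan recognition proteins PGRP-SD, at 3042, 3481 and 3070.3 in H females, against 1850.5, 2086 and 2404 in M females (log2 fold change 0.60, limma adjusted p = 0.0914), and PGRP-SA, at 4684, 6351 and 5215 in H females, against 2827, 3311 and 3599 in M females (log2 fold change 0.73, limma adjusted p = 0.0918), were not called either. H values lay above M values in these 4 genes. The 14 Bomanin and Daisho genes, short peptides of the Toll pathway, had a median of -0.24 and 0 calls.

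Signaling genes on the higher side included a TGF-beta ligand. daw encodes dawdle, an Activin-type ligand, which in larvae is induced by sugar in the fat body and is needed for the repression of digestive carbohydrate enzymes in the midgut. It had 18747, 18823 and 23632 in H females, against 9189, 11725 and 10315 in M females (log2 fold change 0.97 ± 0.16 SE, limma adjusted p = 0.0294). wit, a type II receptor of the TGF-beta family chosen after its values were seen, had 7009, 6614 and 8136 in H females, against 4388, 4689.6 and 5284 in M females (log2 fold change 0.60, limma adjusted p = 0.0294). Both genes were higher in every H library. Whether wit acts as a receptor for dawdle in this tissue was not tested. p38c, a stress-activated MAP kinase, had 1125, 1339.5 and 1261 in H females, against 411, 451 and 645 in M females (log2 fold change 1.33 ± 0.16 SE, limma adjusted p = 0.0102). Cks85A, a small cyclin-dependent kinase subunit, had 1235, 1206 and 1245 in H females, against 775, 852 and 825 in M females (log2 fold change 0.59, limma adjusted p = 0.0102), and mwh, an actin regulator known from wing hairs, had 545, 1571 and 1467 in H females, against 194, 253 and 204 in M females (log2 fold change 2.32, limma adjusted p = 0.027). Cks85A replicates were the tightest of these, whereas H1 held far less mwh transcript than H2 and H4. The mwh gene (chr3L:1200786-1232700, plus strand) spans LysB, LysC and LysS on the same strand, without shared exon bases in the annotation. Whether reads from these lysozyme genes bear on its level was not tested. Among 30 genes of insulin signaling tobi was the 1 call, and Akt, a central kinase of that pathway, had 8048, 8812 and 9356 in H females, against 7206, 7429 and 7627 in M females (log2 fold change 0.23, limma adjusted p = 0.216). TOR signaling had 0 calls among 30 genes. daw lost its call without H2, H4, M1, M2 or M3 (adjusted p up to 0.121), wit without H1, H2, H4, M1 or M2 (adjusted p up to 0.121), p38c without H4 or M2 (adjusted p up to 0.0566), Cks85A without H4 (adjusted p up to 0.0566) and mwh without H2, H4, M1, M2 or M3 (adjusted p up to 0.121).

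Xenobiotic enzymes gave calls on both sides. Cyp6a8, a cytochrome P450, was higher at 18271, 15711 and 10785 in H females, against 4756, 4333 and 4004 in M females (log2 fold change 1.74 ± 0.28 SE, limma adjusted p = 0.027), and Cyp6g1, a P450 known for insecticide resistance, was lower at 45902, 55418 and 43191 in H females, against 74153, 70190 and 78746 in M females (log2 fold change -0.63, limma adjusted p = 0.0423). They were the only calls among 77 P450 genes. Ugt36E1, 1 of 33 UDP-glycosyltransferases, was lower at 2331, 2266 and 2349 in H females, against 3297, 3242 and 2855 in M females (log2 fold change -0.43, limma adjusted p = 0.025). H and M libraries did not overlap in these genes. Neprilysin-like peptidases are cell surface enzymes that cut peptides, and Nepl13 had 4793, 5797 and 5232 in H females, against 2532, 2998 and 3562 in M females (log2 fold change 0.81, limma adjusted p = 0.0278) while Nepl14 had 5869, 6766 and 6664 in H females, against 3291, 3713 and 4433 in M females (log2 fold change 0.76, limma adjusted p = 0.0307). subdued, a membrane channel of the anoctamin family, had 5840.3, 6513 and 6102 in H females, against 3256, 3128 and 3669 in M females (log2 fold change 0.88, limma adjusted p = 0.0333), and Tmem214 had 12529, 12865 and 12228 in H females, against 9369, 9738 and 9507 in M females (log2 fold change 0.39, limma adjusted p = 0.0294). All 4 were higher in every H library, Tmem214 by the smallest factor. The largest fold change of all called genes belonged to CG31775, at 3101, 2889.7 and 5818 in H females, against 213, 308 and 469 in M females (log2 fold change 3.57 ± 0.51 SE, limma adjusted p = 0.0172), or 11.9-fold, whose values the table repeats for CG42586. CG13067 had 751, 817 and 1052 in H females, against 358, 471 and 420.3 in M females (log2 fold change 1.06, limma adjusted p = 0.024) and CG15021 had 1322, 1004 and 1083 in H females, against 592, 406 and 357 in M females (log2 fold change 1.35, limma adjusted p = 0.0294). Left-out libraries ended the calls of CG31775 (without H4, M1 or M2, adjusted p up to 0.0878), Nepl13 (without H2, H4, M1 or M2, adjusted p up to 0.118), Nepl14 (without H2, H4, M1 or M2, adjusted p up to 0.127), Ugt36E1 (without H1, H2, H4, M1 or M2, adjusted p up to 0.105), CG13067 (without H2, H4, M1, M2 or M3, adjusted p up to 0.105) and CG15021 (without H1, H2, H4, M2 or M3, adjusted p up to 0.121). Tmem214 was not called with library totals or quantile scaling (limma adjusted p = 0.2 and 0.0915). Cyp6a8, Cyp6g1, subdued and Tmem214 lost theirs whichever library was left out (adjusted p up to 0.103, 0.169, 0.126 and 0.108).

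The yolk protein genes and several other lists held 0 calls. Yp1, Yp2 and Yp3, the yolk proteins that fat body and ovary supply to eggs, were not called. Yp1 had 3960949, 4886434 and 5059501 in H females, against 3870711, 4009230 and 4382948 in M females (log2 fold change 0.18, limma adjusted p = 0.594), and the groups overlapped. Yp2 had 3230104, 3318522 and 3655885 in H females, against 2733765, 2765673 and 2757233 in M females (log2 fold change 0.30, limma adjusted p = 0.362), with every H library above every M library and a ratio of 1.24. Storage hexamerins, Turandot stress proteins, serpins, Toll and Imd signaling, glutathione S-transferases, glycolysis, autophagy, clock, ecdysone, cuticle and odorant-binding protein lists also had 0 calls in limma at RNA-1. For 77 nuclear genes of oxidative phosphorylation the median was 0.08, and for 72 mitochondrial ribosomal protein genes 0.07. Both medians turned to -0.02 and -0.03 when libraries were divided by their totals, and neither list held a call. Cyt-c-p, the cytochrome c of the respiratory chain, had 23727, 27138 and 24671 in H females, against 14119, 17738 and 19104 in M females (log2 fold change 0.58, limma adjusted p = 0.104), without overlap between the diets.

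Genes of dividing cells had negative medians with 0 calls, and germline markers moved with them. The median log2 fold change was -1.13 for 75 replication-dependent histone genes and -1.02 for 27 genes of the cell cycle and DNA replication, against -0.92 for 44 germline markers and -0.70 for 25 eggshell markers. Of the histone genes 18 had every H library below every M library (24%, against 9.74% of all genes), and 1 had every H library above (12.9% of all genes). Germline levels were 9.20, 8.01 and 7.72 in H libraries, against 10.04, 9.03 and 8.49 in M libraries (mean log2 of 44 genes), which overlapped. The part of residual ovary in these lists was not tested gene by gene. With germline level as a covariate, 100 genes were called higher and 107 lower in H. Of 57 named genes that were called, 56 were also called with this covariate and 54 with gut level in its place. With germline and eggshell levels together, 41 genes were called higher and 64 lower. Of the 53 higher and 54 lower calls without covariates, 28 and 36 were kept in that fit. Without the 3 fat body libraries richest in germline RNA, among them M1, 0 were called higher and 2 lower.

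**Figure D4:**
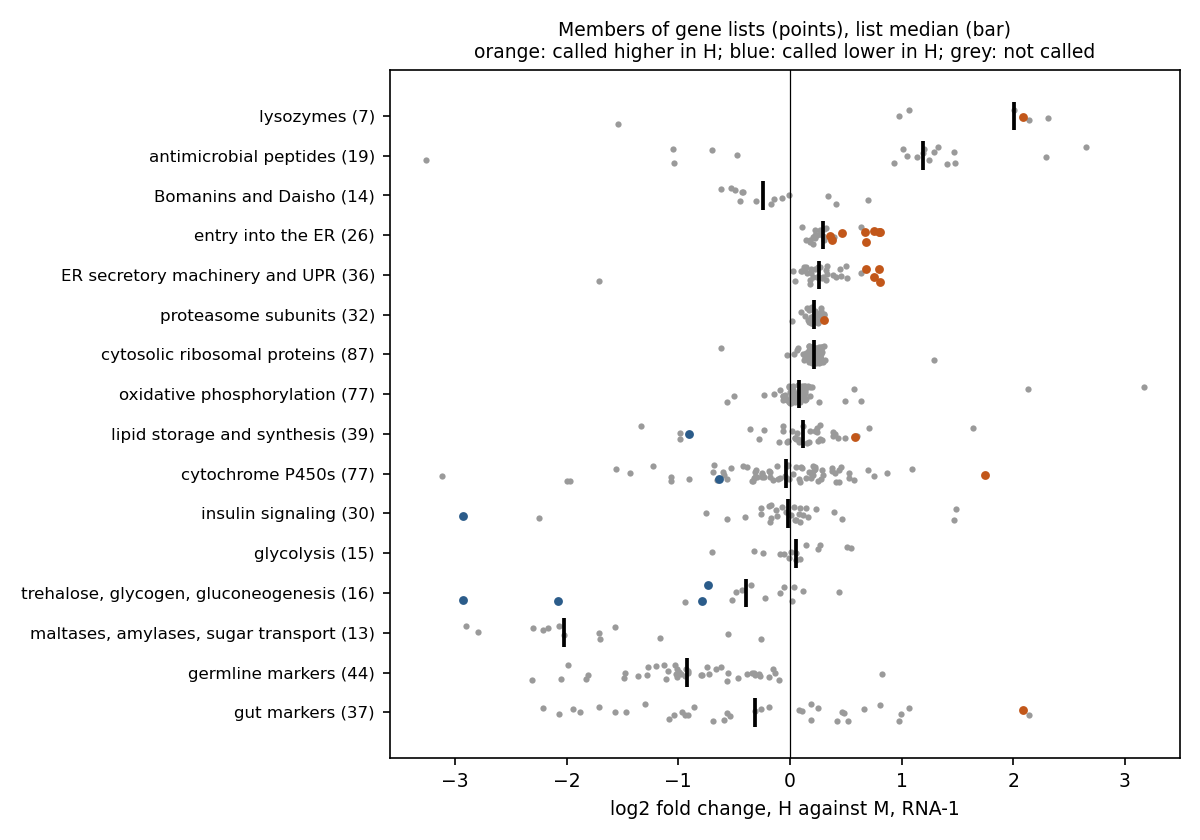
Log2 fold change of H over M at RNA-1 for each tested member (points) of 16 gene lists, with the list median as a bar and the number of members in brackets, orange for genes called higher, blue for called lower and grey for not called. Bars of the lysozyme, antimicrobial peptide, ER and proteasome lists lie right of 0, and those of the maltase and amylase list and of the germline markers lie left of it.

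The same contrast was made at RNA-2, after 60% of the cohort had died. There 2 genes were higher in H (0.0184% of genes tested) and 63 lower (0.581%). None of the 53 genes higher at RNA-1 was called higher at RNA-2, 1 (CG15021) was called lower, and their median log2 fold change was -0.23. Of the 54 genes lower at RNA-1, 3 were lower again: Ace, Tsf1 and HisT. Ace had 228, 487 and 245 in H females, against 1219, 946 and 1221 in M females at RNA-2, much as at RNA-1. Tsf1 had 243966, 316869 and 259929 in H females, against 570293, 697648 and 617523 in M females, with all RNA-2 libraries above all RNA-1 libraries of the same diet. HisT had 1573, 1881 and 1872 in H females, against 4685, 3734 and 4573 in M females, where the log2 fold change was -1.28, against -0.73 at RNA-1. These 3 genes were thus lower in H females in all libraries of both points. The points share no library, but RNA-1 and RNA-2 are defined by deaths and not by days, so the age of H and M females may differ at each.

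**Figure D5:**
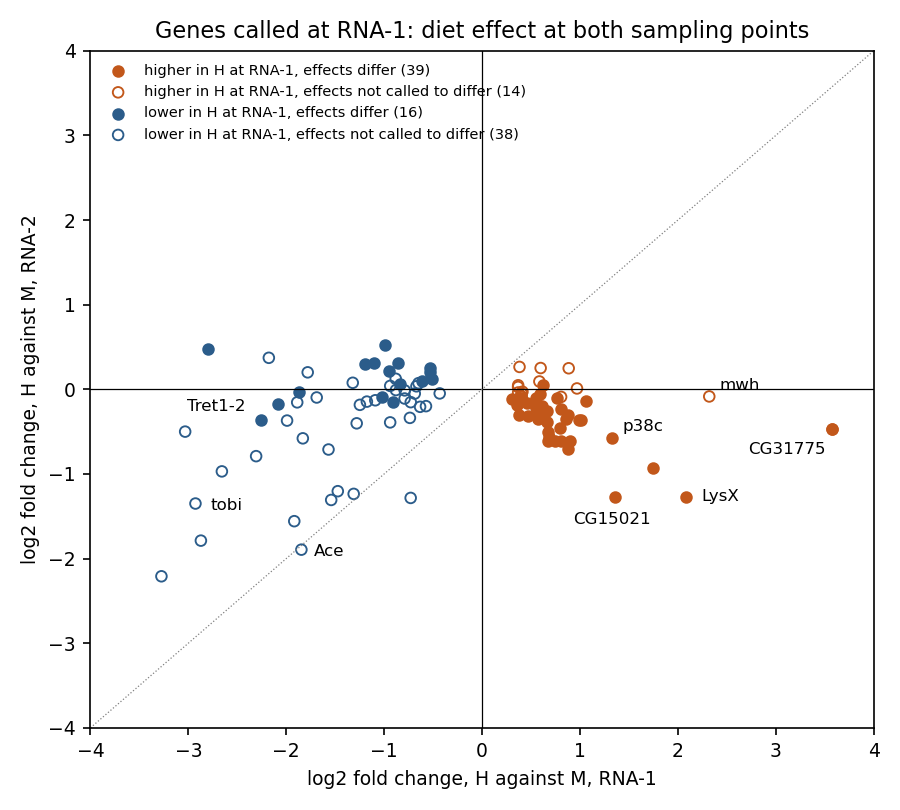
Log2 fold change of H over M at RNA-1 (horizontal axis) and at RNA-2 (vertical axis) for the 107 genes called at RNA-1, with the line of equal effects dotted. Filled points mark the 39 higher and 16 lower genes for which the difference of the effects was called, and most orange points lie below 0 on the vertical axis.

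The difference between the diet effects was tested as an interaction in the fit of 12 libraries. It was positive in 190 genes (1.75% of genes tested) and negative in 29 (0.267%). Among the 190, 39 had been called at RNA-1 and 36 at RNA-2, with a median log2 fold change of 0.40 at RNA-1 and -0.46 at RNA-2. Opposite signs were common in the whole table: 64.2% of all genes with a positive log2 fold change at RNA-1 had a negative one at RNA-2, against 45 of the 53 called genes. For genes negative at RNA-1 the share was 58.5%, against 18 of the 54 called genes. These calls depended on single libraries. Without H replicate 2 of RNA-2, the RNA-2 contrast gave 1645 higher and 880 lower genes, and without H replicate 1 or 3 or M replicate 1 of RNA-2 it gave 0 of either, and without M replicate 3 it gave 0 and 1. For the difference, 939 positive and 1341 negative genes were called without H replicate 2 of RNA-2, 301 and 32 without M replicate 2 of RNA-2, and 0 of either without H4 or M2 of RNA-1. Germline RNA also differed at RNA-2. Its mean log2 level was 10.33, 6.76 and 10.31 in H libraries, against 7.16, 6.63 and 7.17 in M libraries, and the 44 markers had a median log2 fold change of 2.35. With germline level as a covariate, limma called 0 genes of either sign at RNA-2 (320 higher and 468 lower at an unadjusted p under 0.05) and 0 differences (708 positive and 593 negative). Of the 12 libraries, only H1 and M3 of RNA-1 left both counts near the full fit, with 143 and 33 genes without H1 and 144 and 35 without M3.

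The Sec61 genes are an example, in the fit without that covariate. At RNA-2 Sec61alpha had 11893, 13146 and 11960 in H females, against 19554, 15565 and 22076 in M females (log2 fold change -0.62) and Sec61beta had 4797, 5426 and 4800.5 in H females, against 7466, 6789 and 8754 in M females (log2 fold change -0.61). H females were now the lower group in every library, and the difference between the effects was 1.36 for Sec61alpha and 1.41 for Sec61beta (limma adjusted p = 0.0152 for both). In the ER list 10 of 36 members had a positive difference call, against 1.75% of all genes tested. In the list of ER entry, drawn up after the values were seen, 15 of 26 had one. LysX had 648, 919 and 783 in H females, against 2129.5, 1608 and 1906 in M females, a difference of 3.35 (limma adjusted p = 0.0152). Mtk had 1545, 3650.3 and 2279.5 in H females, against 33788, 7284 and 57780 in M females, a difference of 4.84 (limma adjusted p = 0.0378). Both genes were above M levels in H females at RNA-1 and below them at RNA-2, in all libraries. Of the 14 Bomanin and Daisho genes 11 were called lower at RNA-2, against 0.581% of all genes tested.

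The 54 genes lower at RNA-1 had a median log2 fold change of -0.14 at RNA-2, where 36 still had a negative sign. Tret1-2 had 417, 489 and 520.5 in H females, against 538, 599 and 477 in M females, overlapping between the diets, where the difference between effects was -1.90 (limma adjusted p = 0.0167). CG6495 had 7243, 7616 and 6627 in H females, against 8541, 10029 and 9158 in M females (difference -1.89, limma adjusted p = 0.0186). Both genes stood higher at RNA-2 than at RNA-1 on either diet. Pdcd4 had 9957, 7800.1 and 9767 in H females, against 7981, 8613 and 7055 in M females (difference -1.16, limma adjusted p = 0.0152), overlapping between the diets. tobi had 38010, 67140 and 43463 in H females, against 104140, 172734 and 102101 in M females, still without overlap, and its difference of -1.58 was not called (limma adjusted p = 0.109). The daw transcript was at 4166, 5749.9 and 4441 in H females, against 5664, 4345 and 4234 in M females at RNA-2, well under its RNA-1 levels on both diets.

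The 107 genes were also looked up in the head and ovary libraries of the same point, which the authors normalized separately. Of the 53 higher genes 39 had the same sign in the head, against 44.5% of all genes positive in fat body, and 7 were called higher there, against 0.643% of genes tested. Of the 54 lower genes 30 had the same sign in the head, against 48.9% of all genes negative in fat body, and 13 were called lower there, against 2.75%. In ovaries 30 of 49 higher genes had the same sign (48.6% of all) and 8 were called higher (11.5%), whereas 26 of 47 lower genes had the same sign (50% of all) and 1 was called lower (13.5%). The shares called in the same direction were above the background in the head for both lists. In ovaries the lower list was under it. Head tissue also contains fat body. apolpp had a log2 fold change of 0.54 in the head (limma adjusted p = 0.0201), CG31775 of 2.87 (0.0201) and daw of 0.62 (0.0249). Tsf1 was at -0.98 (limma adjusted p = 0.00809), Tret1-2 at -1.04 (0.0369) and Cyt-b5-r at -0.81 (0.0381). These 6 genes thus passed in the head in the direction seen in fat body. Ace differed from them, with log2 fold changes of 0.47 in the head (limma adjusted p = 0.0883) and 1.91 in the ovary (0.0218). Sec61alpha was higher in H in both, at 0.40 in the head (limma adjusted p = 0.0387) and 0.35 in the ovary (0.00975).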

How the data were processed

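RNA from the fat body, head and ovaries of pooled females was sequenced in 36 libraries, of which the 12 fat body libraries (4 groups of 3) entered the fit and 6 the comparison. The submitters' processing notes name kallisto 0.46.1, DESeq2 1.28.1, R 4.0.1 and build BDGP6. The deposited values are a normalized signal, read here as gene counts that the authors estimated with kallisto and divided by size factors in DESeq2, since they are not whole and their mean over 12 libraries equals the base mean column beside them. Columns of the authors' own comparisons (fold changes and p-values) were not used. The tables hold expressed genes by a rule that the sources used here do not give. Whole reads could not be recovered, so no count model was run. These sources also do not say whether kallisto used strand, and genes that share exon bases may share reads.

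Values were tested as log2(value + 1) in limma 3.58.1 under R 4.3.3 with trended, robust variances, 1 mean per group and Benjamini-Hochberg adjustment over 10850 genes, after a filter of at least 10 normalized counts in at least 3 libraries. Fold changes on this scale understate the change of low genes. The members and lists were chosen with earlier results of these data known. Named genes were, on each side, the 12 called genes with the smallest p and the 12 with the largest change, and up to 4 genes with only a CG number. These had to average at least 100 normalized counts and to have H and M libraries that did not overlap, so that lack of overlap was a condition of their choice. All 53 higher and 54 lower calls met the second condition. Up to 4 members per list by p were added, and the 5 smallest p on each side of the difference between sampling points. Among tested genes 168 have values identical to another gene in every library. Symbols came from a table of FlyBase identifiers (12309 of 12394 matched) and positions from an annotation of BDGP6. Alternatives covered scaling, filters, pseudocounts, variance model, samples in the fit, single libraries, the replicate number as a block, and marker levels as covariates. The fit was tested on simulated data. Precision is limited by 3 pools per group, and a head or ovary level is not comparable with a fat body level because the tables were normalized separately.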

Additional observations from a re-analysis of the deposited data

Results flagged for a closer look

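For 36 of the 89 genes named above the diet effect at RNA-1 differed from that at RNA-2 by the interaction test in limma (adjusted p under 0.05, 190 positive and 29 negative differences over all genes). Some of them were named for a small p of this same difference. Others were named for a small p or large change at RNA-1, whose libraries enter the test, so their number is no separate evidence of differing effects. The differences, each the log2 fold change of H over M at RNA-1 minus that at RNA-2, are given by group.

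For genes of entry into the ER they were 1.36 for Sec61alpha, 1.41 for Sec61beta, 1.25 for Sec61gamma, 1.18 for Tapdelta, 1.24 for SsRbeta, 0.78 for SrpRbeta, 0.54 for Srp72 and 0.49 for Srp9. For CG32276, which is in neither list of ER genes, the difference was 1.51. For the proteasome and chaperone genes the differences were 0.42 for Rpn12, 0.39 for Rpn7 and 0.58 for Hsp83. For immune and lysozyme genes they were 3.35 for LysX, 4.84 for Mtk, 1.59 for PGRP-SD and 1.57 for PGRP-SA. H females were above M females at RNA-1 and below them at RNA-2 in the fitted effects of these genes except Hsp83, whose effect at RNA-2 was 0.05. Mtk, Rpn7, PGRP-SD and PGRP-SA were not called at RNA-1 itself.

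For other genes higher in H at RNA-1 the differences were 1.35 for CROT, 2.67 for Cyp6a8, 1.90 for p38c, 0.65 for Cks85A, 1.04 for Nepl13, 0.87 for Nepl14, 1.19 for subdued, 0.50 for Tmem214, 4.04 for CG31775, 1.20 for CG13067 and 2.62 for CG15021.

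On the lower side they were -1.90 for Tret1-2, -0.76 for GLaz, -0.94 for Cyt-b5-r, -0.78 for CAH1, -1.16 for Pdcd4, -0.73 for LRP1, -1.89 for CG6495, -0.90 for CG8008 and -1.51 for CG42788. GLaz, Cyt-b5-r, Tret1-2 and CG6495 remained below M in the fitted effect at RNA-2, at -0.15, -0.09, -0.18 and -0.37, whereas CG42788, Pdcd4, CAH1, LRP1 and CG8008 were above, at 0.52, 0.22, 0.25, 0.20 and 0.06. All of these differences rest on 3 pools per group, and with germline level as a covariate 0 differences were called in limma. The part of residual ovary RNA, which was highest in 2 of the H libraries of RNA-2, was not tested gene by gene. No search for single outlying libraries was made, since each group has 3.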

How the results depend on the processing

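Read depth cannot be told from normalized values. Each group holds 3 pools, and every count of genes moved with the processing. Over 89 named genes and 1957 values under other settings, 1387 stayed on the same side of the threshold, 524 lost a call, 46 gained one and 0 changed sign, whereas medians of lists near 0 did change sign with the scaling. The cause of each move in the counts below was not tested, except that stricter thresholds and fewer libraries leave fewer calls by construction.

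At RNA-1 the 53 higher and 54 lower genes became 105 higher with quantile normalization, 141 lower with division by library totals, 23 higher without trended or robust variances, 12 and 19 from the 6 libraries alone, 0 and 3 at an adjusted p under 0.01, and 9 and 30 with a further threshold of 2-fold. With germline level as a covariate they became 100 and 107, and with germline and eggshell levels 41 and 64. Without single libraries the range was 1 to 34 higher and 9 to 50 lower genes.

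At RNA-2 the 2 higher and 63 lower genes became 10 higher with quantile normalization, 33 lower with library totals, 0 higher with no filter, 0 and 14 without trended or robust variances, 0 and 0 from 6 libraries alone, 0 and 0 at an adjusted p under 0.01, 0 and 36 at 2-fold, and 0 and 0 with germline or with germline and eggshell covariates. Without single libraries the range was 0 to 1645 higher and 0 to 880 lower genes. The difference between the effects (190 positive, 29 negative) became 91 negative with quantile normalization, 66 and 49 with library totals, 110 and 45 without trended or robust variances, 0 and 0 at an adjusted p under 0.01, 73 and 16 at 2-fold, and 0 and 0 with germline or with germline and eggshell covariates. Without single libraries it ranged over 0 to 939 positive and 0 to 1341 negative genes.

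Replicate numbers 1 and 2 occur on both diets at RNA-1, with correlations of the deviations from the group means of 0.32 and -0.02, and the labels tie a number to no shared litter, batch or day, so whether the numbers pair the libraries is not known and the fit without the block was kept. With the replicate block, 2 genes were higher and 3 lower at RNA-1, 0 and 0 at RNA-2, and the difference was called in 0 of either sign.

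Alternatives on 3 points were chosen after seeing the data. Without the 3 fat body libraries with most germline RNA, 0 genes were higher and 2 lower at RNA-1, 0 and 0 at RNA-2, and 0 had a difference of either sign. With gut level as a covariate 67 were higher and 75 lower at RNA-1, 0 and 7 at RNA-2, and the difference was positive in 118. With each library's trend on transcript length removed, 78 were higher and 74 lower at RNA-1, 1 was higher at RNA-2, and the difference was negative in 52.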

Other observations

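The Fbp1 transcript, which encodes a fat body receptor known from larvae, spanned 1749, 471 and 395 normalized counts in H females, against 3395, 2076 and 118514 in M females at RNA-1, and 54.6, 226 and 12423 in H females, against 19.2, 329.5 and 61.6 in M females at RNA-2. Single libraries of each diet were high at one point or the other, M3 at RNA-1 and H replicate 3 at RNA-2, and limma gave an adjusted p of 0.411 at RNA-1.

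Takeout (to) had the largest fitted change of the named genes that were not called at RNA-1 (log2 fold change -4.46). At RNA-2 it had 163, 92 and 114 in H females, against 3767, 47.7 and 1452 in M females, with 1 M library below all H libraries.

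For each library, log2 levels were taken as deviations from the gene's mean over the fat body libraries. These deviations correlated with annotated transcript length across 10774 genes at 0.13, -0.06 and 0.00 in H libraries of RNA-1. The correlations were 0.20, 0.02 and -0.02 in M libraries (Pearson, across genes, which are not independent replicates). Replicate 1 of each diet was the highest of its group.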
